A study of Homo sapiens with 3 samples.

Results

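LNCaP cells in which the 5' fragment of lysine tRNA had been knocked down (5'-Lys KD) were set against LNCaP cells in which the 5' fragment of aspartate tRNA had been knocked down (5'-Asp KD). The pair was chosen because both small interfering RNAs (siRNAs) were given at 20 nM, and it makes up 2 of the 3 samples of the study. The question is which messenger RNAs (mRNAs) differ when one tRNA fragment rather than the other is targeted at an equal dose. The third sample, a knockdown of the 3' fragment of aspartate tRNA (3'-Asp KD), received 10 nM and is given only beside a few values.

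LNCaP is an established line of human prostate cancer cells that respond to androgen. For 5'-Lys KD the siRNA was directed at 5'-LysCUU, for 5'-Asp KD at 5'-AspGUC, and the control of each array was LNCaP cells given an siRNA to R-Luc, Renilla luciferase, which these cells lack. All cells grew in IMEM with L-glutamine and 5% FBS and were harvested 72 h after transfection, and total RNA was taken with TRIzol. There was 1 two-colour array per knockdown and no replicate. No test could be made, and "higher" and "lower" describe these arrays. Bulk RNA cannot tell fewer cells of a kind from less RNA per cell.

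SHOT-RNAs are sex hormone-dependent tRNA-derived RNAs, found in hormone-responsive breast and prostate cancer cells. Angiogenin, a secreted ribonuclease, cuts mature tRNAs in the anticodon loop and leaves a 5' and a 3' fragment. Only some tRNAs give abundant fragments, and those for lysine and aspartate are among them. The fragments themselves were not analysed here, so the arrays hold no check of how far either was reduced.

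The labels and the deposited column names disagree on the direction of the 5'-Asp array. Labels put the knockdown in Cy3, the first signal column, and the control in Cy5, the second, on both arrays. Column names do the same on the 5'-Lys array but call the first column the control on the 5'-Asp array. The values below follow the labels. Each gene has a log2 ratio of Cy3 over Cy5 on each array, centred on the median of the measured genes, and the difference is the 5'-Lys ratio minus the 5'-Asp ratio. In that difference a dye effect on a gene, or a control RNA used on both arrays, would cancel. If the column names were right, the comparison would instead be the sum of both ratios, in which a dye effect would add up. That sum is given for the named genes whose sign it turns.

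Of 20399 genes with a symbol, 10200 were taken as measured, those with a mean log2 signal at or above the 50th percentile. The median deposited intensity of all probes was 94.0 in Cy3 on the 5'-Lys array, against 70.7 in Cy3 on the 5'-Asp array. The difference had an SD of 0.35 across genes and a median of 0.01. All 10 spike-in probes had a difference between -0.27 and -0.13, with a mean of -0.22 and an SD of 0.05. This puts the same dye in the first column of both arrays but does not show which cell RNA carried it. The mean lies about as far from 0 as some list medians below. For the 3086 measured genes with more than 1 probe, the SD of the difference between probes of a gene was 0.12 at the median and 0.60 at the 95th percentile. The spike-in and probe values measure error within the arrays and hold no spread between cultures. All 5 luminal prostate markers analysed here, KLK3, KLK2, HOXB13, KRT8 and KRT18, were measured, with intensities from 756 to 35471. Of the basal markers 0 of 3 were measured, with intensities from 2.08 to 12.4, and likewise 0 of 3 endothelial and 0 of 4 leukocyte markers. Among 6 fibroblast markers, COL1A1 alone was measured.

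At least 2-fold apart between the knockdowns were 164 of the 10200 measured genes (1.61%). With 5'-Lys KD 60 of them were higher (0.588%) and 104 lower (1.02%) than with 5'-Asp KD. The 2 control columns, which carry the same label, were at least 2-fold apart for 109 genes (1.07%), 66 higher (0.647%) and 43 lower (0.422%) on the 5'-Lys array. Both columns enter the ratios. At 1.5-fold the split was 323 higher (3.17%) and 519 lower (5.09%). Ratios at least 1.5-fold from 0 were high for 4.49% and low for 6.95% of measured genes on the 5'-Lys array, and for 3.54% and 4.35% on the 5'-Asp array. Among the 60 higher genes, 32 lay at least 1.5-fold from 0 on the 5'-Asp array alone and 21 on the 5'-Lys array alone. The 104 lower genes were arranged the other way, 69 on the 5'-Lys array alone and 18 on the 5'-Asp array alone. Most genes that separate the knockdowns were thus within 1.5-fold of their control on 1 of the 2 arrays.

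**Figure D1:**
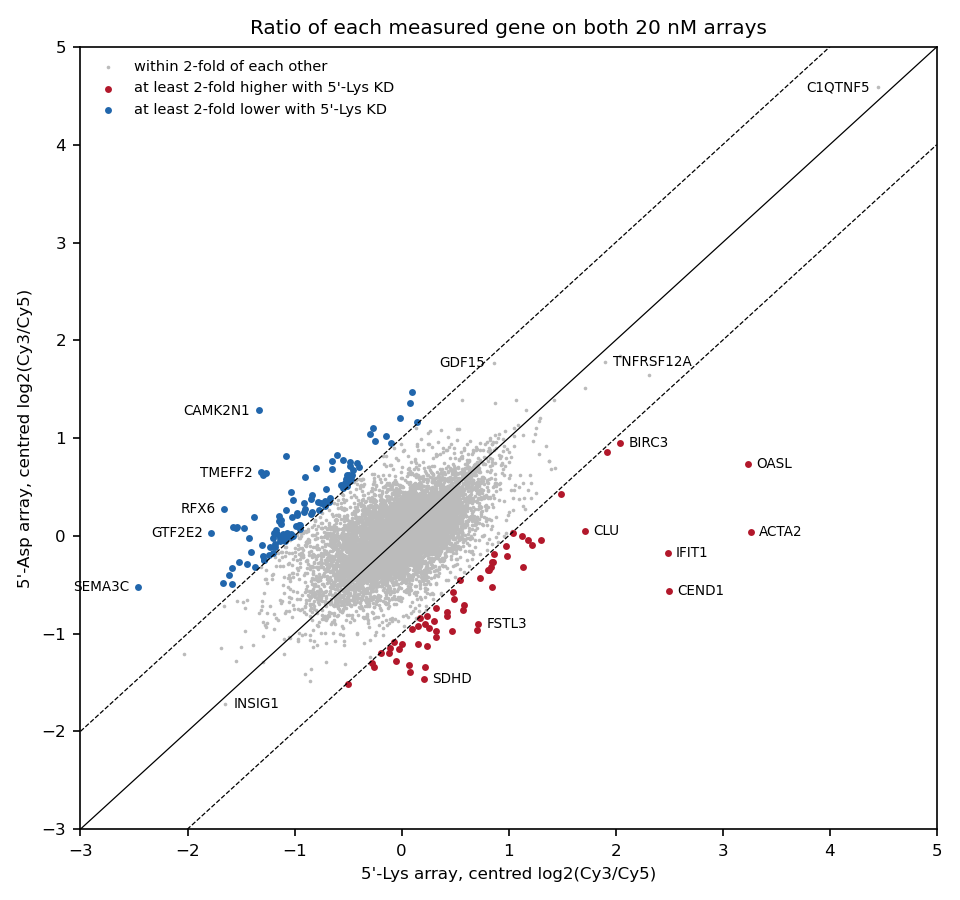
Centred log2 ratio of Cy3 over Cy5 for the 10200 measured genes, with the 5'-Lys array on the horizontal and the 5'-Asp array on the vertical axis. The solid line marks equal ratios and the dashed lines a 2-fold difference. ACTA2, IFIT1, CEND1 and OASL lie farthest to the lower right and CAMK2N1 farthest to the upper left, while C1QTNF5 lies near the solid line at 4.45 and 4.59.

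The 4 highest differences belonged to genes that stood out on the 5'-Lys array. ACTA2, smooth muscle actin, had an intensity of 4317 in the 5'-Lys KD column and 444 in the control column beside it, against 279 in the 5'-Asp KD column and 267 in its control. Only the 5'-Lys KD column was high, and the difference of the ratios was 9.33-fold (log2 ratios of 3.26 and 0.04). CEND1, known as a neuronal regulator of cell cycle exit, had 772 with 5'-Lys KD and 135 in the control, against 75.2 with 5'-Asp KD and 110 in the control. Its difference was 8.33-fold, with a ratio of 2.50 on the 5'-Lys array and -0.56 on the 5'-Asp array. CEND1 counted as measured only through its high 5'-Lys KD column.

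IFIT1, an interferon-induced protein that binds foreign RNA by its 5' end, had 2482 with 5'-Lys KD and 438 in the control, against 331 with 5'-Asp KD and 370 in the control. Its control columns were equal after centring (a log2 difference of -0.00), and the ratios were 6.35-fold apart. OASL, an interferon-induced relative of the oligoadenylate synthetases, had 1371 with 5'-Lys KD and 144 in the control, against 209 with 5'-Asp KD and 124 in the control. It was above its control on both arrays, with ratios of 3.23 and 0.74, and the difference was 5.64-fold. In all 4 genes the 5'-Lys KD column was far above the other 3 columns. With 3'-Asp KD, at 10 nM, the ratios were -0.47 for ACTA2, 0.08 for CEND1, -0.52 for IFIT1 and -0.14 for OASL, and since the dose differed no comparison is made. Each of these 4 genes rests on 1 probe.

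**Figure D2:**
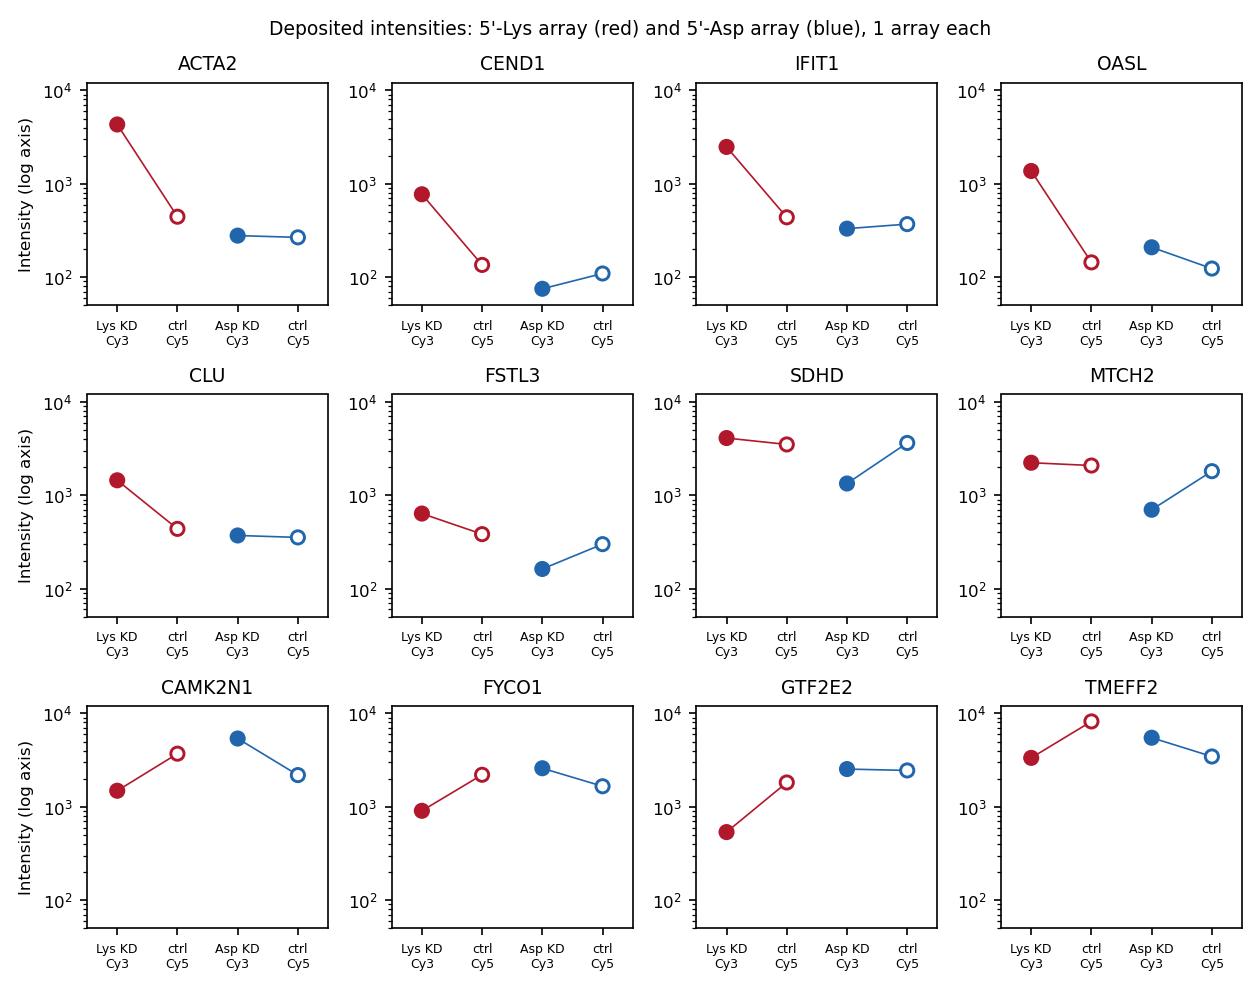
Deposited intensity on a log axis for 12 genes in the knockdown (filled, Cy3) and control (open, Cy5) columns of the 5'-Lys array (red, left) and the 5'-Asp array (blue, right), 1 array each. In ACTA2, CEND1, IFIT1, OASL and CLU the 5'-Lys KD point stands above the other 3 points, in SDHD and MTCH2 the 5'-Asp KD point stands below them, and in CAMK2N1 and FYCO1 the lines slope in opposite directions.

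Because the 5'-Asp ratios of these genes were small beside their 5'-Lys ratios, they stay apart whichever column held the knockdown on that array. At least 2-fold in the same direction by the labels and by the column names were 13 higher and 40 lower genes of the 10200 measured. For 11 and 35 of these the control columns lay within 1.5-fold of each other. That held for 9631 of all 10200 measured genes, so it does not set these genes apart. Read by the column names, the log2 values became 3.31 for ACTA2, 1.93 for CEND1, 2.31 for IFIT1 and 3.97 for OASL. CLU, the extracellular chaperone clusterin, had 1448 with 5'-Lys KD and 437 in the control, against 371 with 5'-Asp KD and 354 in the control. It was 3.16-fold apart, 1.66 by the labels and 1.76 by the column names. BAK1, which opens the mitochondrial outer membrane in apoptosis, was 2.20-fold higher, with intensities of 3086 and 1394 on the 5'-Lys array, against 1480 and 1466 on the 5'-Asp array. SYTL2, an effector of RAB27 in vesicle transport, was 2.09-fold higher and DNAJB4, a cochaperone of HSP70, was higher by 1.23 on the log2 scale. Of these, SYTL2 counted as measured only through its high 5'-Lys KD column. The other higher genes of this kind, counted after their values were seen, were PROCR, FGL1, BIRC3, SNORA62 and CCDC88B, of which PROCR and BIRC3 differed more in the Cy5 than in the Cy3 columns.

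Among lower genes that hold under both readings, the 6 described first were low in the 5'-Lys KD column. GTF2E2, the beta subunit of TFIIE, which helps RNA polymerase II start transcription, had 536 with 5'-Lys KD and 1821 in the control, against 2535 with 5'-Asp KD and 2450 in the control. Its difference was 3.51-fold, -1.81 by the labels and -1.75 by the column names, although its control columns differed by -0.67. SPRING1, a factor needed to activate the sterol regulator SREBP, was 3.18-fold lower, with 83.2 and 246 on the 5'-Lys array, against 229 and 212 on the 5'-Asp array. CERS6, a ceramide synthase, was 3.09-fold lower, with 1629 and 4690 on the 5'-Lys array, against 4571 and 4254 on the 5'-Asp array.

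In CERS6 the 2 probes gave -2.18 and -1.07. RABEP1, an effector of RAB5 in endosome fusion, was 2.96-fold lower, and its 2 probes gave -1.59 and -1.55. LEF1, a transcription factor of WNT signalling, was 3.08-fold lower and DDX18, an RNA helicase of ribosome assembly, 2.93-fold lower. In each of these genes the 5'-Asp ratio lay between 0.03 and 0.19, and passing both readings requires it to be smaller in size than the 5'-Lys ratio. Named after their values were seen, GPD2, a mitochondrial glycerol phosphate dehydrogenase, stood at -1.20, KHK, fructokinase, at -1.25 and the nuclear receptor ESRRA at -1.06.

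SEMA3C, a secreted semaphorin, had 141 with 5'-Lys KD and 772 in the control, against 224 with 5'-Asp KD and 317 in the control. The ratio was 3.86-fold lower, but the Cy5 columns differed by 1.04 and the Cy3 columns by -0.89. More of that difference therefore lay between the control columns than between the knockdowns. The same held for RFX6, a transcription factor of pancreatic islet development, with 1.01 in Cy5 and -0.91 in Cy3.

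A second set of higher genes was set apart by low 5'-Asp ratios. SDHD, a membrane subunit of respiratory complex II, had 4102 with 5'-Lys KD and 3503 in the control, against 1337 with 5'-Asp KD and 3634 in the control. The 5'-Asp KD column was low and the other 3 lay close together. Its 3 probes gave differences from 1.58 to 1.74, and the gene was 3.19-fold higher with 5'-Lys KD. MTCH2, a carrier-like insertase of the mitochondrial outer membrane, had 2232 and 2084 on the 5'-Lys array, against 700 and 1812 on the 5'-Asp array, and was 2.78-fold higher.

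KIFBP, a kinesin-binding protein, was 2.63-fold higher, with 4776 and 4486 on the 5'-Lys array, against 1482 and 3657 on the 5'-Asp array. CYP4V2, a fatty acid hydroxylase, was 2.96-fold higher, with 289 and 246 on the 5'-Lys array, against 71.2 and 179 on the 5'-Asp array. TSN, the RNA-binding protein translin, was 2.18-fold higher with ratios of -0.03 and -1.15, with both probes above 1.09. In these 5 genes the 5'-Lys ratio lay between -0.03 and 0.22. Their sign turns under the column names: the 5'-Asp KD column would lie above its control, and the log2 values would be -1.25 for SDHD, -1.31 for MTCH2, -1.25 for KIFBP, -1.13 for CYP4V2 and -1.18 for TSN. So the genes stand apart on the 5'-Asp array under either reading, and the direction cannot be told.

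At least 1.5-fold from 0 in opposite directions on both arrays were 12 genes (0.118%). CAMK2N1, an inhibitor of the calcium/calmodulin-dependent kinase CaMKII, had the lowest difference of all measured genes. Its intensity was 1486 with 5'-Lys KD and 3704 in the control, against 5384 with 5'-Asp KD and 2185 in the control. It was below its control on the 5'-Lys array and above it on the 5'-Asp array, with ratios of -1.33 and 1.28 and a 6.13-fold difference. FYCO1, an adaptor that moves autophagosomes along microtubules, had 906 with 5'-Lys KD and 2203 in the control, against 2586 with 5'-Asp KD and 1660 in the control, and was 3.78-fold lower.

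TMEFF2, a transmembrane protein of prostate and brain, had 3341 and 8206 on the 5'-Lys array, against 5488 and 3456 on the 5'-Asp array. Its control columns were farther apart than its knockdown columns. CYB5R3, a cytochrome b5 reductase, was lower by both probes, at -1.51 and -1.49. CD99L2, an adhesion protein, was also lower, but its 2 probes gave -3.25 and -0.55. FSTL3, a secreted inhibitor of activin, and TTR, the thyroxine carrier transthyretin, were higher instead, 3.07-fold and 3.19-fold. By the column names these opposite ratios would be ratios of the same sign, and the values for CAMK2N1, FSTL3 and TTR would be -0.05, -0.18 and -0.26.

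The dyes can also be taken apart. The difference of the Cy3 columns had an SD of 0.39 across genes and that of the Cy5 columns 0.31. The Cy3 columns alone were at least 1.5-fold apart for 5.66% of measured genes in the higher and 5.5% in the lower direction. Among the 60 higher genes 53 had Cy3 columns at least 1.5-fold apart in the same direction, and in 8 the Cy5 columns differed more than the Cy3 columns. Of the 104 lower genes these counts were 86 and 22. The difference that picked these genes is, up to a constant, the Cy3 difference minus the Cy5 difference. These counts therefore follow in part from that choice and lend it no support. DHRS2, a mitochondrial reductase, was 2.29-fold higher by the ratios, with 1235 and 1023 on the 5'-Lys array, against 1299 and 2460 on the 5'-Asp array. Its knockdown columns were close, and the control column of the 5'-Asp array was the high one. CD24, a surface glycoprotein, and VIM, the intermediate filament vimentin, were lower by ratio, at -1.33 and -1.20. In both the Cy3 columns ran the other way, at 0.45 and 0.08, while the Cy5 columns differed by 1.77 and 1.26. The ratios of DHRS2, CD24 and VIM were thus set apart by the control columns, and their sums would be -0.69, 0.75 and 0.23.

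**Figure D3:**
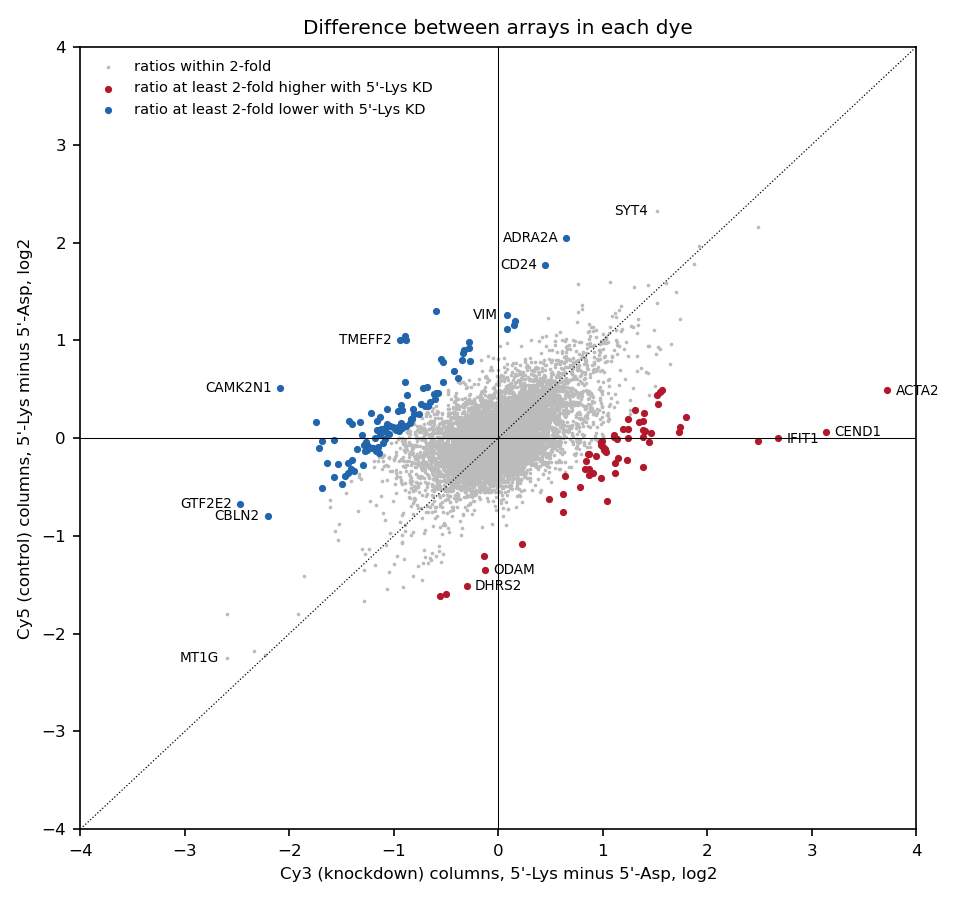
Log2 difference between the arrays, 5'-Lys minus 5'-Asp, in the Cy3 columns (horizontal, knockdown by the labels) and in the Cy5 columns (vertical, control by the labels), each column centred on its median. Red and blue points are the 60 higher and 104 lower genes, and the dotted line marks an equal difference in both dyes. ACTA2, CEND1 and IFIT1 lie far along the horizontal axis, CD24, VIM, ODAM and DHRS2 along the vertical, and MT1G near the dotted line.

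Among genes induced by interferon, a few members stood far higher on the 5'-Lys array and most did not. Interferons are secreted signals of antiviral defence, and many genes they induce carry a short response element in their promoters. Of 24 measured members 6 were at least 1.5-fold higher with 5'-Lys KD (3.17% of all measured genes were) and 0 were lower (5.09%). The list median of the difference was 0.03, beside 0.01 for all measured genes. After IFIT1 and OASL came IFI6, a mitochondrial inhibitor of apoptosis, with 1066 and 475 on the 5'-Lys array, against 609 and 498 on the 5'-Asp array. The ubiquitin-like modifier ISG15 had 28390 and 13608 on the 5'-Lys array, against 17984 and 14808 on the 5'-Asp array.

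Their differences were 0.88 and 0.78, and in both genes the 5'-Lys KD column was the highest of the 4. IFI44 had 0.61, but by the column names it would be -0.20. PSMB9, an immunoproteasome subunit, had 0.65, which lay in the control columns (0.09 in Cy3 and -0.58 in Cy5). At the other end DTX3L, an E3 ubiquitin ligase, had -0.45 and IRF7, a transcription factor of the interferon genes, -0.55, with a sum of 0.02. Of the 15 measured genes that sense double-stranded RNA, 0 were 1.5-fold higher (3.17% of all measured genes were) and 0 lower (5.09%). In so small a list those shares amount to few genes. Among these sensing genes EIF2AK2, the RNA-activated kinase PKR, had 0.32 and TICAM1, the adaptor of TLR3, -0.46.

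The promoters of 3 of the higher interferon genes are shown because the interferon response element can be read in them. Capitals mark GAAANNGAAA on either strand, which reads TTTCNNTTTC where it lies on the other one. Each window runs from 250 bases before to 50 bases after the gene's start (RefSeq, GRCh38.p14), and is written 5' to 3' on the gene's strand.
IFIT1, chr10:89392373-89392672, plus strand: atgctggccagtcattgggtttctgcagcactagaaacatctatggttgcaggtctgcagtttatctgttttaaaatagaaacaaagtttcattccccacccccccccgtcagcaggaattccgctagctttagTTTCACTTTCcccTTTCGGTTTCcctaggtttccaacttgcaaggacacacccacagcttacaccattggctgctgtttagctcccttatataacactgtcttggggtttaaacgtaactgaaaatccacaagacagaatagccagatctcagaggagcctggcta
IFI6, chr1:27672143-27672442, minus strand: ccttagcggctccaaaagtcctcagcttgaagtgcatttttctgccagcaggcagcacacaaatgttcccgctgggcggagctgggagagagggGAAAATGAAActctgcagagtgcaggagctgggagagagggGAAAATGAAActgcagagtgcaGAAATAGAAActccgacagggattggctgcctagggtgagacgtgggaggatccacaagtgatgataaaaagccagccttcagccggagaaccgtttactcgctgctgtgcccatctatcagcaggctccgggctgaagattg
ISG15, chr1:1013247-1013546, plus strand: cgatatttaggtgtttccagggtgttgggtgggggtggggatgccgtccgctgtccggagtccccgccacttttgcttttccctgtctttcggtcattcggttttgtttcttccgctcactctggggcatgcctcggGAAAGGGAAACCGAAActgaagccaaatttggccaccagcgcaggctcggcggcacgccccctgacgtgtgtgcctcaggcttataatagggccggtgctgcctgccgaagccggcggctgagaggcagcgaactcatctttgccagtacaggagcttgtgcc
The IFIT1 matches began 116 and 103 bases before the start, those of IFI6 156, 115 and 93 bases before it, and those of ISG15, which overlap, 113 and 107 bases before it. Of all 35116 promoters given, 1255 (3.57%) held a match. Of the 24 measured interferon genes 20 had a promoter there and 15 of these held a match. That was 4 of 5 among the genes at least 1.5-fold higher with 5'-Lys KD and 11 of 15 among the others. Matches were thus found among the members that were higher and among those that were not.

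Contractile genes of smooth muscle were measured in 13 members. Of these 5 were at least 1.5-fold higher with 5'-Lys KD (3.17% of all measured genes were) and 1 was lower (5.09%), with a median difference of 0.37. Beside ACTA2 stood tropomyosins, which lie along actin filaments: TPM1 had 5212 and 2844 on the 5'-Lys array, against 2022 and 2410 on the 5'-Asp array, and its 3 probes gave 1.12 to 1.14. TPM4 had 0.96, the calponin CNN2 0.98 and MYLK, the myosin light chain kinase, 0.63.

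CALD1, caldesmon, which also binds actin, went the other way with 14411 and 24058 on the 5'-Lys array, against 23930 and 18708 on the 5'-Asp array, a difference of -1.09. For TPM1, TPM4, CNN2 and CALD1 the Cy5 columns were within 0.30 of each other on the log2 scale and the Cy3 columns at least 0.70 apart. For ACTA2 the Cy5 columns were farther apart, by 0.49, beside 3.72 in the Cy3 columns. Of the fibroblast markers 5 of 6 were below the level taken as measured, and COL1A1 had a difference of -0.07 and a sum of 1.01. Their summed intensity was 244 and 171 on the 5'-Lys array, against 150 and 108 on the 5'-Asp array. Most of that sum was COL1A1, with 199 and 142 on the 5'-Lys array, against 129 and 87.4 on the 5'-Asp array. The part of these markers in the result was not tested. CCN1, an early gene that codes for a matrix protein, was 1.95-fold higher, with ratios of 0.96 and 0.00.

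**Figure D4:**
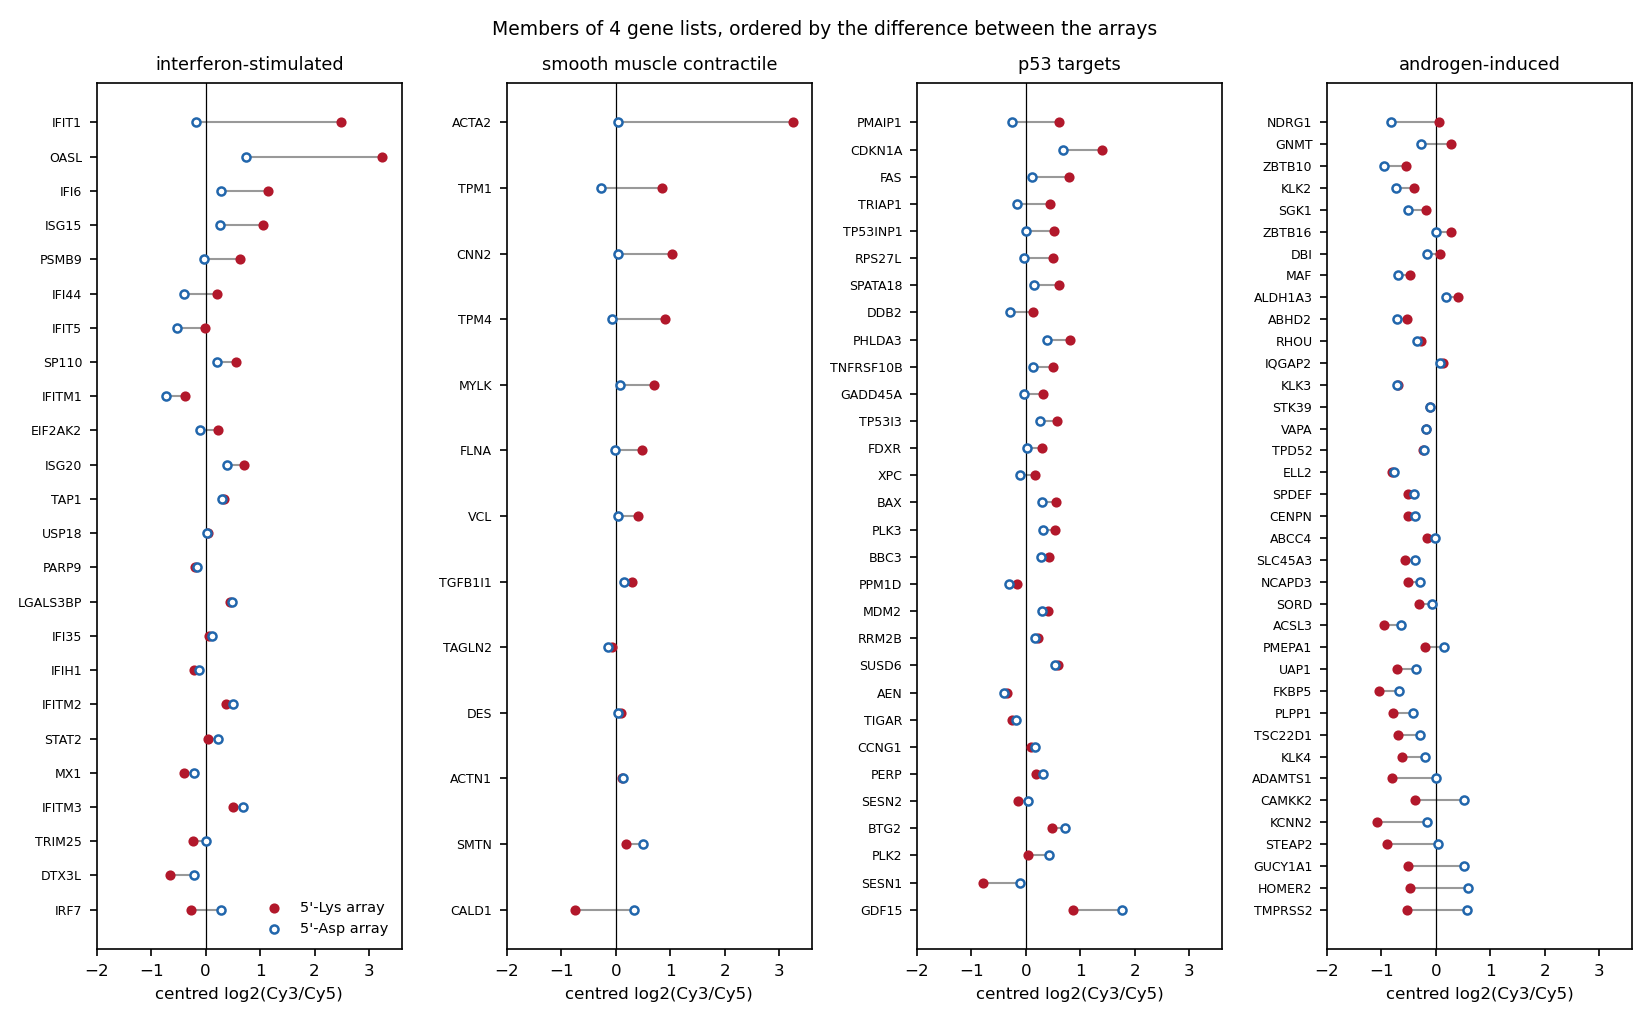
Centred log2 ratio on the 5'-Lys array (filled red) and on the 5'-Asp array (open blue) for the measured members of 4 lists, in order of their difference. The difference is widest for IFIT1, OASL and ACTA2 at the top and for TMPRSS2, HOMER2 and CALD1 at the foot, and for KLK3 the points lie on each other.

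Targets of p53, the transcription factor that answers DNA damage, had 22 of 30 measured members above 0 (50.9% of all measured genes were). At least 1.5-fold higher with 5'-Lys KD were 4 (3.17% of all measured genes were) and 2 were lower, near the 5.09% of all genes. The list median was 0.44 on the 5'-Lys array and 0.14 on the 5'-Asp array, and the median difference was 0.24. PMAIP1, the apoptosis gene also called NOXA, had 2234 and 1447 on the 5'-Lys array, against 920 and 1078 on the 5'-Asp array. CDKN1A, the cell cycle inhibitor p21, had 456 and 171 on the 5'-Lys array, against 370 and 228 on the 5'-Asp array.

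The PMAIP1 difference of 0.86 lay in the knockdown columns (1.05 in Cy3 and 0.18 in Cy5). That of CDKN1A, 0.72, lay in the control columns (0.07 in Cy3 and -0.66 in Cy5). The same was seen for the list, whose median Cy3 difference was 0.04 and whose median Cy5 difference was -0.16. GDF15, a stress-induced cytokine, was lower, with 88422 and 48158 on the 5'-Lys array, against 206738 and 59855 on the 5'-Asp array. It was above its control on both, by 0.86 and 1.77, and if the column names were right it would be higher by 2.63 on the log2 scale. SESN1, sestrin 1, was lower at -0.69.

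Of 28 measured regulators of apoptosis 4 were at least 1.5-fold higher with 5'-Lys KD (3.17% of all measured genes were) and 0 lower (5.09%), with a median difference of 0.15. They were BAK1, BIRC3, PMAIP1 and the death receptor FAS. BIRC3, an inhibitor of apoptosis induced by NF-kB, had 596 and 143 on the 5'-Lys array, against 364 and 186 on the 5'-Asp array. It was above its control on both arrays, with ratios of 2.04 and 0.95, and the difference lay more in the Cy5 columns (-0.63) than in the Cy3 columns (0.48). TNFRSF12A, the receptor of the cytokine TWEAK, had 7643 and 2026 on the 5'-Lys array, against 6680 and 1927 on the 5'-Asp array, and did not separate them, at 0.12.

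Androgen-induced genes differed in part. Androgen acts on prostate cells through its nuclear receptor, which binds enhancers of secretory and metabolic genes. Of 37 measured members 7 were at least 1.5-fold lower with 5'-Lys KD (5.09% of all measured genes were) and 1 was higher (3.17%). The list median was -0.51 on the 5'-Lys array and -0.27 on the 5'-Asp array, and the median difference was -0.13. TMPRSS2, a membrane serine protease, had 3887 with 5'-Lys KD and 5524 in the control, against 5548 with 5'-Asp KD and 3667 in the control. HOMER2, a scaffold protein of synapses, had 1414 and 1943 on the 5'-Lys array, against 2294 and 1514 on the 5'-Asp array.

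Both were below their control on the 5'-Lys array and above it on the 5'-Asp array, with differences of -1.10 and -1.06. Under the column names the sums would be 0.06 and 0.11. The other lower members were GUCY1A1, STEAP2, KCNN2, CAMKK2 and ADAMTS1, from -1.02 to -0.81, of which CAMKK2 would turn to 0.14. ADAMTS1 differed in the Cy5 columns (0.72) and not in the Cy3 columns (-0.07). KCNN2, a potassium channel, was below its control on both arrays, at -1.08 and -0.16. NDRG1, a stress-responsive gene, was the higher member at 0.88, with a sum of -0.77. KLK3, prostate-specific antigen, had 6188 and 9957 on the 5'-Lys array, against 7417 and 12016 on the 5'-Asp array, and its ratios of -0.70 and -0.71 were 0.01 apart, with a sum of -1.42. Of 6 genes known as repressed by androgen 3 were at least 1.5-fold lower, CAMK2N1, BCHE and UGT2B15 (5.09% of all measured genes were), and 0 higher (3.17%). Their median difference was -0.68, and the median sum would be 0.50. UGT2B15, an enzyme that conjugates androgens, had ratios of 0.02 and 0.88, and its difference of -0.85 would turn to 0.90. BCHE, butyrylcholinesterase, had a difference of -1.25, but its Cy5 columns were 0.90 apart and its Cy3 columns -0.33.

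Cell cycle genes were below their controls on both arrays and separated the knockdowns little. The 40 measured genes of G1/S and DNA replication had a median ratio of -0.52 on the 5'-Lys array and -0.53 on the 5'-Asp array, with a median difference of 0.05. The 50 measured genes of G2/M and mitosis had -0.60 and -0.64, with a median difference of -0.10. By the column names the 5'-Asp ratios would be above 0, and the list medians of the sum would be -1.04 and -1.21. At least 1.5-fold lower with 5'-Lys KD were 4 G1/S genes (5.09% of all measured genes were), and 1 was higher, near the 3.17% of all genes.

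E2F1, a transcription factor that drives S phase genes, had 750 and 1786 on the 5'-Lys array, against 1591 and 2007 on the 5'-Asp array. Its ratios were -1.27 and -0.35, and the difference of -0.92 lay in the Cy3 columns (-1.31). UHRF1, which maintains DNA methylation, had -0.87, with probes at -1.03 and -0.71. RRM2, a subunit of ribonucleotide reductase, was higher at 0.63, with ratios of -0.86 and -1.49, but the sum would be -2.34. TOP2A, a topoisomerase of dividing cells, had -0.72 and MKI67, the proliferation antigen Ki-67, -0.45. Of 24 measured genes of homologous recombination and Fanconi repair 1 was 1.5-fold lower, near the 5.09% of all genes, and 0 were higher (3.17%). It was BARD1, the partner of BRCA1, at -0.74.

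**Figure D5:**
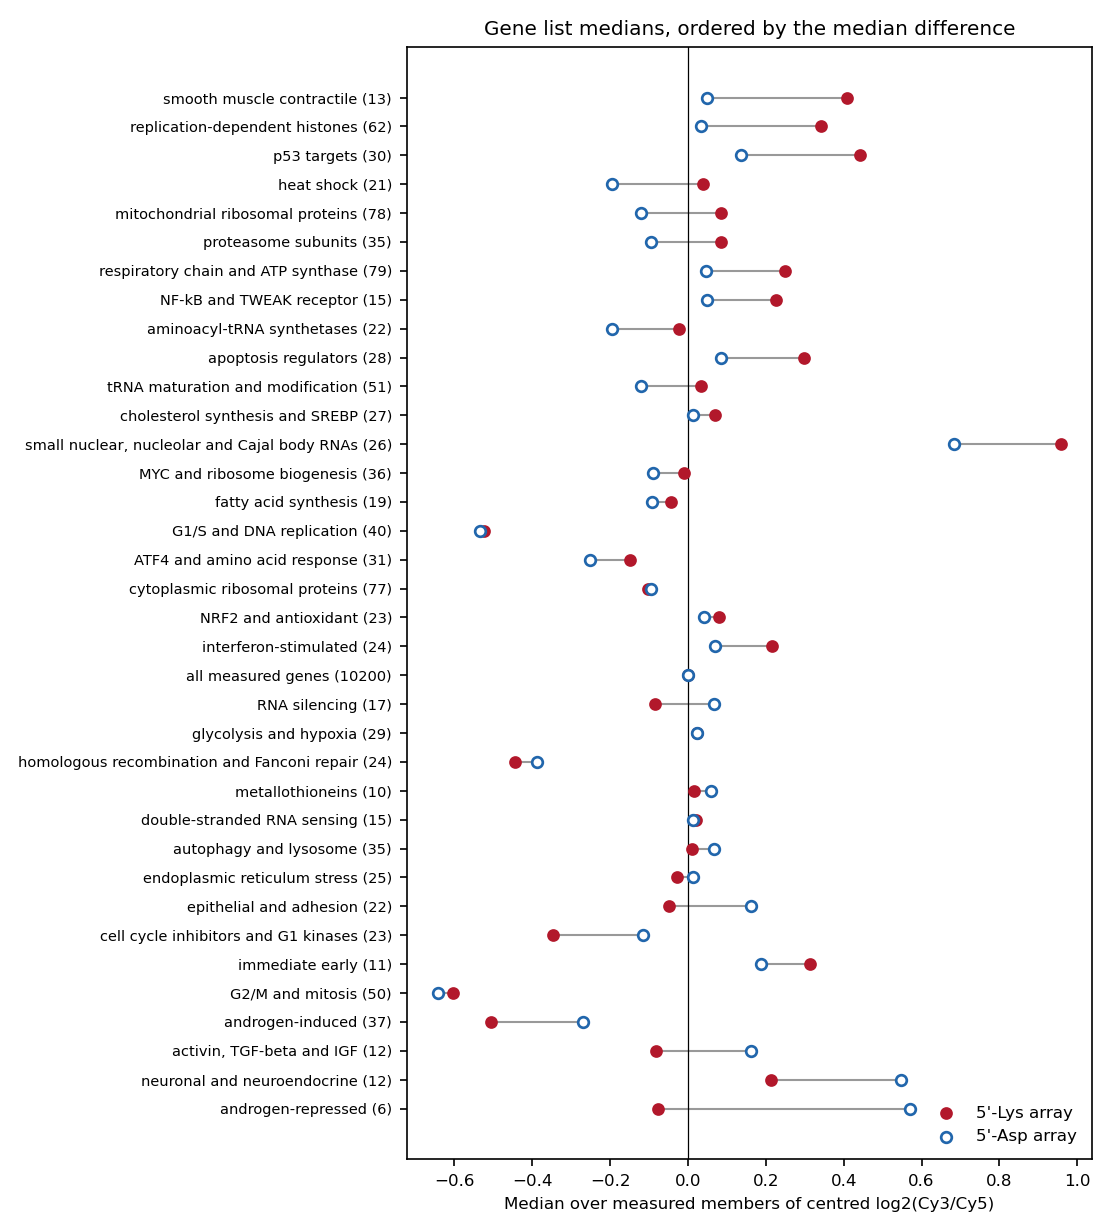
Median centred log2 ratio of each list's measured members on the 5'-Lys array (filled red) and on the 5'-Asp array (open blue), in order of the median difference, with the number of measured members in parentheses. Smooth muscle genes stand at the top with medians of 0.41 and 0.05, androgen-repressed genes at the foot with -0.08 and 0.57, and the G1/S points lie on each other near -0.52.

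Several lists had a median difference near 0.2 with few members apart. In the respiratory chain and ATP synthase 63 of 79 measured genes lay above 0 (50.9% of all measured genes did), with a median of 0.19. Its median Cy3 difference was 0.00 and its median Cy5 difference -0.24. Mitochondrial ribosomal proteins had a median of 0.21, with 65 of 78 above 0, and their Cy3 and Cy5 medians were -0.09 and -0.34. Subunits of the proteasome had 0.20, with 33 of 35 above 0, and Cy3 and Cy5 medians of 0.02 and -0.18. The median sums would be 0.28, -0.04 and 0.04. In each of these 3 lists the median lay in the control columns more than in the knockdown columns. At the 1.5-fold threshold 2, 3 and 1 of their members were higher (3.17% of all measured genes were) and 1, 2 and 0 lower (5.09%). These counts do not set the lists apart from all measured genes.

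Replication-dependent histone genes, whose mRNAs mostly end in a stem-loop and not in a poly(A) tail, had a median difference of 0.26. Of 62 measured members 10 were at least 1.5-fold higher (3.17% of all measured genes were) and 0 lower (5.09%). Without genes whose control columns were 1.5-fold apart, an alternative added after seeing the data, the median was 0.066. Both dyes were lower on the 5'-Lys array, with median differences of -0.53 in Cy3 and -0.79 in Cy5. Metallothioneins, which bind zinc and copper, showed a wider gap between arrays that both dyes shared. MT1G had 1063 and 1058 on the 5'-Lys array, against 5492 and 4236 on the 5'-Asp array. Over the 10 measured members the median difference was -1.02 in Cy3 and -1.24 in Cy5, and in the ratios it was -0.03. So the RNA on the 5'-Lys array, knockdown and control alike, held less metallothionein signal than that on the 5'-Asp array.

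Of 51 measured genes of tRNA maturation and modification 2 were at least 1.5-fold higher, near the 3.17% of all genes, and 0 lower (5.09%). ANG, the angiogenin that cuts tRNAs, had 813 and 644 on the 5'-Lys array, against 725 and 999 on the 5'-Asp array. Its difference of 0.80 lay in the control columns, with -0.06 in Cy3 and -0.88 in Cy5, and the sum would be -0.16. Of 22 measured aminoacyl-tRNA synthetases and partners, which load tRNAs with amino acids, 0 were 1.5-fold higher (3.17% of all measured genes were) and 0 lower (5.09%). In so small a list those shares amount to few genes. Cytoplasmic ribosomal proteins had 0 of 77 measured members 1.5-fold apart in each direction, beside the same shares, and a median of 0.04.

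Some genes with high ratios on both arrays, or low ratios on both, did not separate the knockdowns by the labels. C1QTNF5, a secreted protein of the C1q family, had 755 and 34.1 on the 5'-Lys array, against 617 and 25.3 on the 5'-Asp array. The ratios of 4.45 and 4.59 were the highest on each array, and the difference was -0.14. INSIG1, the sterol sensor that retains SREBP in the endoplasmic reticulum, had 1335 and 4145 on the 5'-Lys array, against 1600 and 5217 on the 5'-Asp array. Its ratios of -1.65 and -1.72 were 0.07 apart, while INSIG2, its relative, was higher with 5'-Lys KD at 0.80. If the column names were right, the sums would be 9.04 for C1QTNF5, 3.67 for TNFRSF12A and -3.37 for INSIG1. A dye effect on a gene would add up in such a sum, so a large sum need not be a difference between the knockdowns. With 3'-Asp KD, at 10 nM, the C1QTNF5 ratio was 4.90, and this gene counted as measured only through its Cy3 columns. A dye effect was not tested. Which of the genes separate the knockdowns thus depends on the dye labels, except for those that hold under both readings.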

How the data were processed

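Total RNA of LNCaP cells was hybridised on Agilent-type two-colour arrays by a service company, per the labels. Intensities of 34183 probes (56 of them controls) were deposited in 2 columns per array. The file headers call these intensity columns raw, but they look background-corrected and dye-balanced, with extraction settings not given. The deposited table of signed folds equals the fold of the first over the second column up to 1 factor per array. That table was used as an alternative.

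Symbols came from the platform annotation (28048 probes with 1 symbol, 6079 with none), updated through RefSeq accessions. Probes of a gene were averaged on the log2 scale, and genes at or above the 50th percentile of mean signal were kept. No detection flags were used. Log2 ratios were centred on each array's median and subtracted, with Python 3.11.15, numpy 2.4.6 and pandas 2.3.3. Loess and normexp (offset 50) in limma 3.58.1 (R 4.3.3) served as alternatives. Number of arrays limits the precision, and the steps were checked on simulated arrays.

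The genes and 35 lists were chosen with earlier results of these data known. Named were the 15 highest and 15 lowest differences whose Cy3 columns were 1.5-fold apart the same way, up to 8 per direction with opposite ratios, 4 per direction led by the control columns, 2 per direction in each list, and 13 genes chosen by name. The other genes were named after their values were seen.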

Additional observations from a re-analysis of the deposited data

Results flagged for a closer look

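For 12 genes the 5'-Lys KD and the 5'-Asp KD ratios lay at least 1.5-fold from 0 on opposite sides. With 1 array each, the difference was not tested. The log2 differences of the lower genes were -2.62 for CAMK2N1, -1.96 for TMEFF2, -1.92 for FYCO1, -1.91 for COL5A2, -1.90 for CD99L2, -1.50 for CYB5R3, -1.49 for CPNE3, -1.42 for CBLN2, -1.41 for ADRA2A and -1.33 for DOCK4. Those of the higher genes were 1.67 for TTR and 1.62 for FSTL3. For TMEFF2, COL5A2, CD99L2 and ADRA2A the Cy5 columns differed more than the Cy3 columns. CYB5R3 is a mean of 2 probes, neither of which was 1.5-fold from 0 on both arrays. ADRA2A and DOCK4 were named after their values were seen. By the column names the ratios of all 12 would share a sign on both arrays. The sums would then be 0.22 for CBLN2, 0.11 for ADRA2A and 0.03 for DOCK4.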

How the results depend on the processing

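Which column held the knockdown on the 5'-Asp array moved counts, medians and signs. By the column names the 2-fold counts were 468 higher and 623 lower, and 340 genes had opposite ratios. List medians became -1.04 (G1/S), -1.21 (G2/M), -0.80 (androgen-induced), 0.48 (p53) and 0.22 (interferon). Of 50 named genes at least 2-fold apart 18 turned: TTR (-0.26), SDHD (-1.25), FSTL3 (-0.18), CYP4V2 (-1.13), MTCH2 (-1.31), TAF11 (-0.50), KIFBP (-1.25), FAXDC2 (-0.89), CBLN2 (0.22), HIST1H2AG (-0.65), ODAM (-0.35), DHRS2 (-0.69), TMPRSS2 (0.056), HOMER2 (0.11), TSN (-1.18), LRRN1 (1.44), CD24 (0.75) and VIM (0.23). Setting the Cy3 columns against each other gave 130 higher and 105 lower genes, of which 37 and 51 were among the 60 and 104. The G1/S median became -0.12 and the p53 median 0.044, and ODAM (-0.12), DHRS2 (-0.30), CD24 (0.45) and VIM (0.080) turned. Normexp gave 38 higher, 67 lower and 6 opposite genes. Without a signal filter the counts were 629, 829 and 285, and at the 75th percentile 17, 46 and 7, with an interferon median of -0.14. At 1.5-fold there were 323 and 519. Leaving out genes whose control columns were 1.5-fold apart, an alternative added after seeing the data, gave 51, 81 and 6. The cause was not tested. Loess (57 and 103), the deposited folds (60 and 104), all named genes as centre (61 and 103) and the brightest probe (64 and 115) stayed within 1.5 times of the counts reported. No paired analysis was possible because each knockdown had 1 array and the labels carry no replicate numbers. Dim genes vary more: the SD of the difference was 0.38 among the dimmest and 0.29 among the brightest 25% of measured genes.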

Other observations

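Neuronal and neuroendocrine genes, 12 of them measured, were among the most spread. CEND1 and SYTL2 were at least 1.5-fold higher with 5'-Lys KD, and 4 members were lower (3.17% and 5.09% of all measured genes were). Mean log2 signals of CEND1 and SYTL2 were 7.27 and 7.22, beside a cutoff of 7.03. Both counted as measured only through their high 5'-Lys KD column, so they do not speak for the list. LRRN1, a leucine-rich repeat membrane protein, had 551 and 515 on the 5'-Lys array, against 572 and 220 on the 5'-Asp array, a difference of -1.28. It lay mostly in the Cy5 columns, which were 0.98 apart, and its sum by the column names would be 1.44. MAPT, the microtubule protein tau, had 411 and 426 on the 5'-Lys array, against 615 and 325 on the 5'-Asp array, at -0.97, with a sum of 0.83. The list's median difference was -0.42 and its median sum 0.89. Its median Cy3 difference was 0.12 and its median Cy5 difference 0.40, so the knockdown columns ran the other way. SYT4, a synaptotagmin, was below its control on both arrays, by -2.03 and -1.21.

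PRDX1, a peroxiredoxin that removes hydrogen peroxide, was the lowest of 23 measured antioxidant genes. It had 41118 and 72747 on the 5'-Lys array, against 75484 and 69854 on the 5'-Asp array, and its 2 probes gave -1.13 and -0.74. IGF2R, the receptor that clears IGF2, had 1482 and 2880 on the 5'-Lys array, against 3008 and 2570 on the 5'-Asp array, at -1.18. In both genes the 5'-Lys KD column was the low one.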
